A study of Oryza sativa with 12 samples.

Results

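The genes described here belong to the cellulose synthase superfamily (*CESA*, *CSLA*, *CSLC*, *CSLD*, *CSLE*, *CSLF*), the laccases (*LAC*) and the 4-coumarate:CoA ligases (*4CL*) of rice. They were chosen by name: a symbol or synonym had to be 1 of these family names followed by a number, with an optional Os prefix, and the gene had to have at least 1 row of the array table to itself. By this rule 34 genes were found among the 15140 genes that the array annotation paired with a row. The reference gene table names 52 genes of these families and of *CSLH*; the other 18 had no such row and were not analysed here. By family, the 34 members were 6 of 9 *CESA*, 5 of 6 *CSLA*, 1 of 5 *CSLC*, 2 of 4 *CSLD*, 1 of 3 *CSLE*, 7 of 7 *CSLF*, 10 of 12 *LAC* and 2 of 5 *4CL* genes.

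The plants carried *pACT1-GVG>OsWOX4:RNAi*, in which the *ACT1* promoter drives GVG, a transcription factor that enters the nucleus on binding dexamethasone (DEX) and then switches on an RNAi construct against *OsWOX4*; the host strain was Taichung 65. Seedlings of 5 days were shaken in liquid MS medium with 10 μM DEX or without it (mock) for 3 h or 12 h, and the shoot apices with the SAM and leaf primordia were taken. All 4 groups carried the construct, and each had 3 arrays from biological replicates, 12 in all. Arrays of wild-type plants given DEX were not analysed here, and what DEX or GVG does by itself and what *OsWOX4* silencing does cannot be told apart, and the sources used here do not say which transgenic line or lines went onto the arrays.

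Plant cell walls are built from cellulose, hemicelluloses and, in thickened cells such as those of the xylem, lignin. Cellulose synthases (CESA) spin cellulose at the plasma membrane, whereas several families of cellulose synthase-like (CSL) proteins make the backbones of other wall polysaccharides. 4CL activates hydroxycinnamic acids on the way to monolignols, the building blocks of lignin, and laccases are copper-containing oxidases that turn monolignols into radicals that couple in the wall.

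The *OsWOX4* row checked nothing about the labels, because it may read the transcript of the RNAi construct as well as the endogenous mRNA. Its signal was higher, not lower, in the arrays labelled DEX: 364, 389 and 432 at 12 h against 134, 149 and 125 in mock. At 3 h it was already higher, with 194, 245 and 262 against 117, 139.7 and 142 (log2 0.81, adjusted p = 0.0372 in limma). Hereafter "DEX arrays" means the arrays labelled so. Replicate arrays of a group correlated at 0.982 to 0.990 over the rows. The median log2 signal of an array was 5.64 to 5.66 in the DEX arrays of 12 h and 5.72 to 5.76 in the other arrays. Of the tissue markers, only the *YABBY* gene *YAB3* had an adjusted p under 0.05 in limma at 3 h (log2 0.55, adjusted p = 0.0246). At 12 h the other tissue markers moved as well. The 3 measured *KNOX* genes of the SAM fell (summed signal 338 to 451 in mock and 224 to 237 in DEX), and so did the 3 chlorophyll-binding protein genes of green tissue (2475 to 2571 against 144 to 207). Of 6 leaf primordium genes (*DL* and *YABBY*), 4 fell and 2 rose. Their summed signal (1834 to 1979 against 2946 to 3208) was higher only through the 2 that rose, *YAB3* and *YAB7*. Of 2 root genes, *QHB* rose (22.1, 16.6 and 14.6 in mock against 303, 196 and 308 in DEX). *SHR1* fell (111, 99.7 and 102 against 36.5, 38.5 and 33.5). No marker was at 0 in any array, and the part of these shifts in the results was not tested. In such bulk samples, fewer cells of a type and less RNA per cell cannot be told apart.

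After 12 h of DEX, all 5 *CSLA* genes fell, 4 of 10 laccase genes rose and none fell, 1 of 6 *CESA* genes rose, and the 2 *4CL* genes moved apart, *Os4CL3* rising 33.2-fold and *Os4CL4* falling 1.45-fold. Here "rose" and "fell" mean an adjusted p under 0.05 in limma, adjusted for all 54922 rows by the method of Benjamini and Hochberg. In all, 8 of the 34 members (23.5%) rose, 6 (17.6%) fell and 20 did not pass. The background was high. Of all rows 43.0% passed at 12 h, 14.9% higher and 28.0% lower. With 1 row for each of the 15140 genes, 55.1% of them passed, 22.8% higher and 32.4% lower. Over the members as a whole, then, the share that rose was close to that of all genes and the share that fell was below it. The median log2 difference of the members was 0.01, and that of all rows -0.06. Between the families, the 22 wall polysaccharide genes (*CESA* and *CSL*) had 3 rises and 5 falls, with a median log2 difference of -0.08. All 5 of these falls were those of the *CSLA* genes, and their share, 22.7%, was below the 32.4% of all genes. The 12 *LAC* and *4CL* genes, grouped as lignin genes by family name alone, had 5 rises (41.7%) and 1 fall (8.33%). Their median was 0.32. Whether each laccase acts on lignin was not tested. By a fold of at least 2 with an unadjusted p under 0.01, 3 members were higher (*Os4CL3*, *LAC1* and *LAC7*) and 2 lower (*CSLA1* and *CSLA5*), against 5.17% and 9.76% of rows. Genes with several rows were counted by the row with the highest mean. The other rows of *LAC23* and *CSLF6* fell, as given below. These counts are descriptions, and the difference between the families was not tested.

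**Figure D1:**
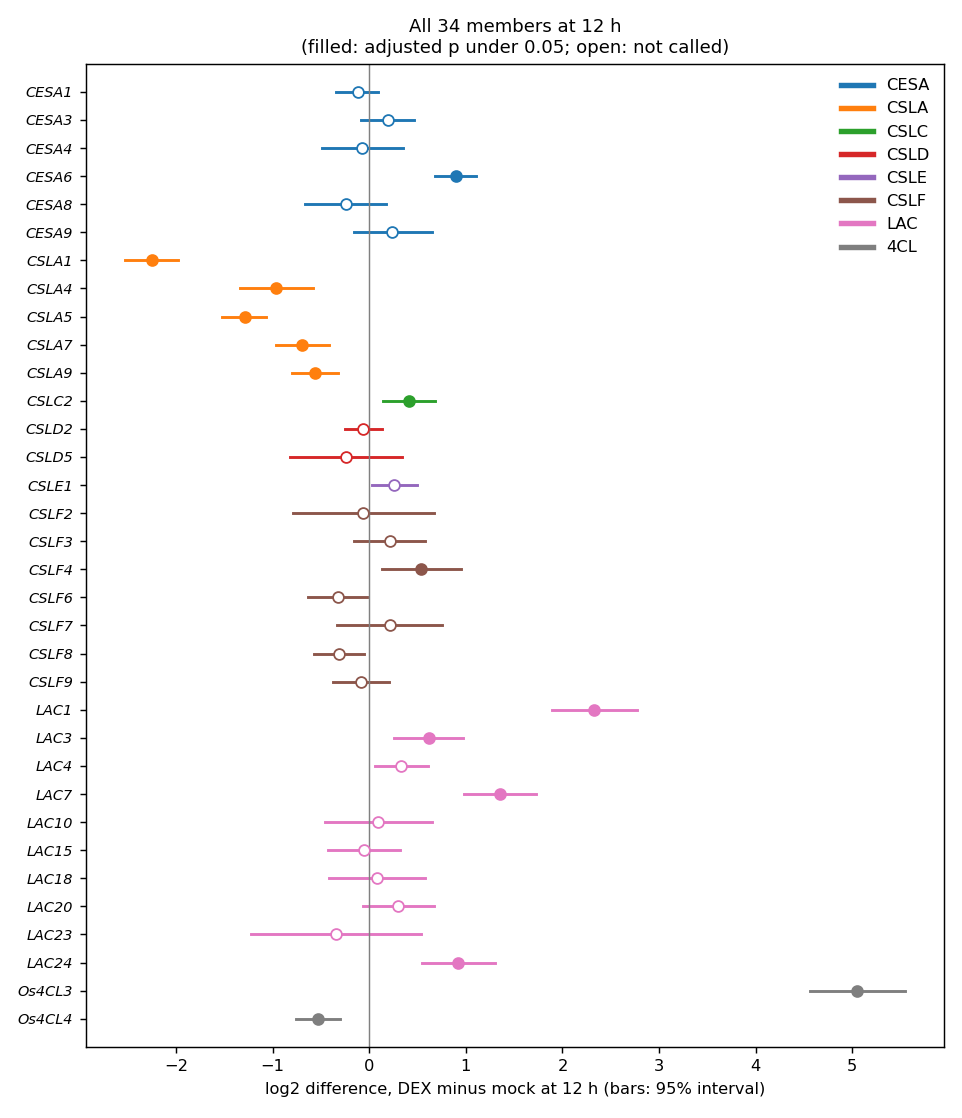
The log2 difference between DEX and mock arrays at 12 h is plotted for each of the 34 members, colored by family, with bars for the 95% interval of the limma fit; filled points passed an adjusted p under 0.05 and open points did not. The 5 *CSLA* genes lie between -2.25 and -0.56, *LAC1*, *LAC7*, *LAC24* and *LAC3* between 0.62 and 2.33, and *Os4CL3* at 5.05.

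Among the cellulose synthases, *CESA1*, *CESA3* and *CESA8* act in primary walls and *CESA4* and *CESA9* in secondary walls of rice. None of these 5 genes passed the test at 12 h. *CESA6* was the member of the family that rose. Mock arrays gave signals of 751, 765 and 671 and DEX arrays 1334, 1448 and 1289.5, a log2 difference of 0.90 (SE 0.10, adjusted p = 1.75e-05). Each DEX array was above each mock array. The next highest difference was that of *CESA9*, with signals of 65.7, 48.8 and 39.1 in mock and 63.2, 50.3 and 65.3 in DEX (log2 0.24, 95% interval -0.16 to 0.65). *CESA8* gave 604, 657 and 525 in mock and 440.4, 533 and 535 in DEX (log2 -0.24, interval -0.66 to 0.17). In both genes the groups overlapped. *CESA1* gave 1177, 1187 and 1097 in mock and 1089, 1098 and 995 in DEX (log2 -0.12, interval -0.34 to 0.09), with an overlap of 1 array. *CESA3* and *CESA4* had log2 differences of 0.19 and -0.07. The intervals of these 5 genes all left out a 2-fold change.

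*CSLA* genes encode synthases of mannan and glucomannan, hemicelluloses of the wall. Among the families with more than 1 measured member, this was the one in which every member passed in the same direction. *CSLA1* fell most: its signal was 2226, 2245 and 1989 in mock and 416, 457 and 482 in DEX at 12 h, a 4.77-fold fall (log2 -2.25, SE 0.13, adjusted p = 1.11e-07). *CSLA5* fell from 205, 246 and 244 to 96.7, 97.7 and 88.5 (log2 -1.29, SE 0.10, adjusted p = 1.47e-06). *CSLA4* fell from 78.5, 66.2 and 74.6 to 43.6, 33.1 and 36.4 (log2 -0.96, SE 0.17, adjusted p = 0.000839). The DEX arrays of all 3 genes lay below every mock array. The falls of *CSLA7* and *CSLA9* were smaller. *CSLA7* gave 261, 297 and 318 in mock and 162, 185 and 193 in DEX (log2 -0.70, SE 0.13, adjusted p = 0.000809). *CSLA9* gave 423, 430.0 and 499 in mock and 331, 277 and 312 in DEX (log2 -0.56, SE 0.11, adjusted p = 0.00148). The groups did not overlap in either gene. The intervals of *CSLA1* (-2.53 to -1.98) and *CSLA5* (-1.52 to -1.07) do not meet each other, nor that of *CSLA9* (-0.80 to -0.32). The annotation lists CSLA9 also as a synonym of the gene called *CSLA1* here; the 2 rows belong to different loci.

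In the remaining *CSL* families only *CSLC2* and *CSLF4* passed, and a second row of *CSLF6* fell. *CSLC2* belongs to a family that makes the glucan backbone of xyloglucan in *Arabidopsis*. Its signal at 12 h was 454, 476 and 408 in mock and 532, 622 and 628 in DEX (log2 0.41, SE 0.12, adjusted p = 0.0184), with no overlap. The call of *CSLC2* was lost when mock replicate 3 (adjusted p = 0.0732), DEX replicate 2 (0.0594) or DEX replicate 3 (0.056) of 12 h was left out. The *CSLD* proteins are close relatives of the cellulose synthases. *CSLD2* gave 807, 793 and 733 in mock and 723, 815 and 703 in DEX (log2 -0.06, interval -0.25 to 0.13). *CSLD5* gave 32.4, 17.6 and 19.1 against 15.7, 20.3 and 20.8 (log2 -0.24, interval -0.82 to 0.34). Neither gene separated the groups. In *CSLE1* all DEX arrays (130.4, 156 and 161) were above all mock arrays (126, 127 and 119), but the gene did not pass (log2 0.26, SE 0.10, adjusted p = 0.0634). It was the only member that did not overlap without being called. In all, 15 of the 34 members did not overlap at 12 h, where 20.2% of all rows lay wholly higher and 32.2% wholly lower. With 1 row for each gene, 9687 of the 15140 genes did not overlap, so a lack of overlap was common.

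*CSLF* genes, found in grasses, make mixed-linkage glucan, and *CSLF6* is the main one in rice. All 7 annotated members were measured. *CSLF9*, *CSLF8*, *CSLF2*, *CSLF4* and *CSLF3* follow each other in this order in the genome, with 0, 1, 2 and 0 other genes between neighbors. Of the 7, *CSLF4* alone passed, with signals of 18.4, 22.2 and 23.2 in mock and 33.9, 23.8 and 36.1 in DEX at 12 h (log2 0.54, SE 0.19, adjusted p = 0.0361). The lowest DEX array was barely above the highest mock array, and the call was lost in 5 of 21 alternative fits (adjusted p up to 0.126). These were the fit of the 6 arrays of 12 h (0.0503) and those that left out mock replicate 1 (0.126) or 2 (0.0618) or DEX replicate 1 (0.111) or 3 (0.123) of 12 h. Its neighbors in the cluster had log2 differences of 0.21 (*CSLF3*), -0.06 (*CSLF2*), -0.31 (*CSLF8*, adjusted p = 0.0548) and -0.08 (*CSLF9*). *CSLF8* gave 60.3, 54.9 and 46.2 in mock and 38.7, 46.3 and 45.0 in DEX, an overlap of 1 array. *CSLF3* and *CSLF7* lay under the lower quartile of the rows in mean signal. *CSLF3* gave 19.8, 19.1 and 15.2 in mock and 20.6, 23.2 and 18.7 in DEX, and *CSLF7* (log2 0.21) gave 7.00, 9.21 and 9.32 against 7.83, 14.2 and 8.38.

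The rows of *CSLF6* disagreed on the call. The row with the higher mean gave 292, 363 and 322 in mock and 256, 293 and 232 in DEX at 12 h, with a log2 difference of -0.32 (SE 0.14, adjusted p = 0.0825). The other row gave 206, 192 and 181 in mock and 115, 129.6 and 118 in DEX, and it fell (log2 -0.67, SE 0.09, adjusted p = 0.000101). Both rows were lower in the mean of the DEX arrays, and only the second was free of overlap. With the mean of the rows in place of the first, *CSLF6* fell by 0.50 on the log2 scale (adjusted p = 0.00221).

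**Figure D2:**
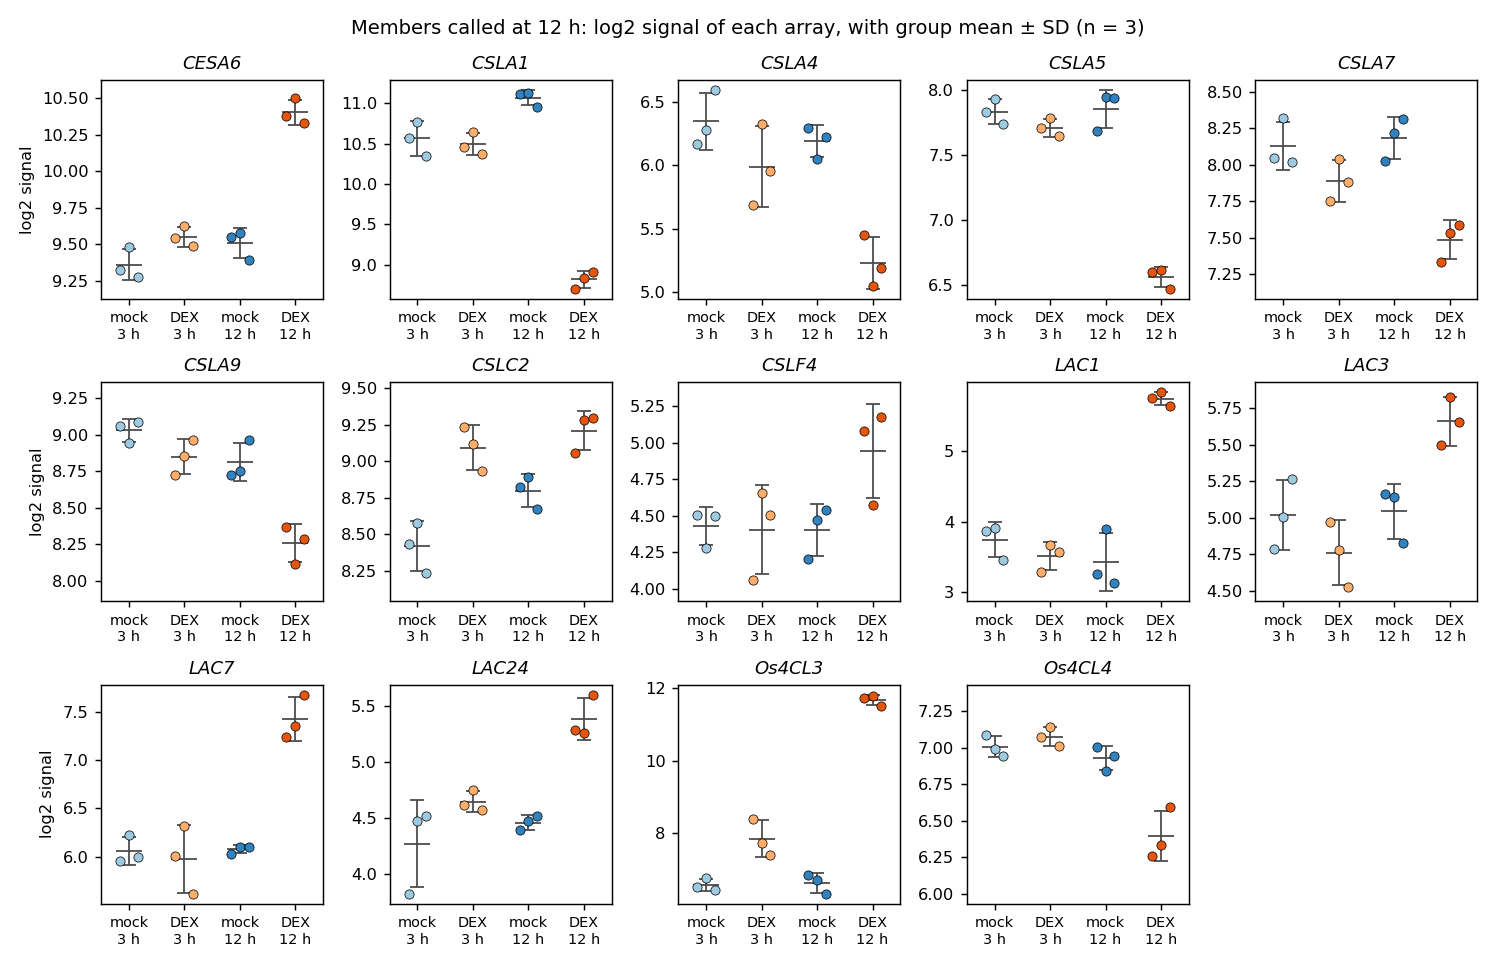
Log2 signals of every array are plotted for the 14 members that passed at 12 h, in 4 groups of 3 arrays (blue, mock; orange, DEX; pale, 3 h; dark, 12 h), with bars for the group mean ± SD; each panel has its own axis, which does not start at 0. In each panel the DEX arrays of 12 h lie wholly above or below the mock arrays of 12 h, and in *CESA6*, *CSLC2*, *LAC24* and *Os4CL3* the DEX arrays of 3 h also lie above the mock arrays of 3 h.

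Of the 10 laccase genes, *LAC1* had the largest log2 difference. Its signal was 14.5, 15.0 and 11.0 in mock and 9.72, 12.7 and 11.9 in DEX at 3 h. At 12 h it was 9.50, 14.9 and 8.70 in mock and 54.2, 57.4 and 50.4 in DEX. The DEX arrays of 12 h stood apart from the other 9 arrays, and *LAC1* rose over mock at 12 h (log2 2.33, SE 0.20, adjusted p = 2.57e-06). The mean of *LAC1* over the 12 arrays lay below the 25th percentile of the rows, and its mock signals lay under the lower quartile of every array (20.9 to 22.6). Detection above background was not tested, so the size of its fold change is uncertain. *LAC7* rose from 65.2, 68.7 and 68.8 to 152, 164 and 206 (log2 1.35, SE 0.17, adjusted p = 5.52e-05). *LAC24* rose from 21.0, 22.3 and 22.9 to 39.1, 38.5 and 48.7 (log2 0.92, SE 0.17, adjusted p = 0.000961). Its mock signals were close to the lower quartile of the arrays, so the size of its fold change is uncertain as well. *LAC3* rose from 35.8, 35.3 and 28.4 to 45.2, 56.8 and 50.3 (log2 0.62, SE 0.16, adjusted p = 0.00841). In these 4 genes no DEX array overlapped with mock.

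The other 6 laccase genes did not pass. *LAC4* came closest, with 56.4, 41.6 and 45.8 in mock and 66.5, 55.9 and 57.9 in DEX (log2 0.33, SE 0.13, adjusted p = 0.0507). *LAC20*, *LAC10*, *LAC18* and *LAC15* had log2 differences of 0.30, 0.09, 0.08 and -0.05. *LAC15* gave 9.98, 8.17 and 9.94 in mock and 8.61, 8.53 and 9.89 in DEX. *LAC23* had the lowest value of the family, -0.34, with signals of 24.5, 24.5 and 10.0 in mock and 17.5, 11.7 and 14.5 in DEX. Replicate 3 of the mock group stood well below the other mock arrays, and the interval of *LAC23*, -1.22 to 0.54, was the only one among the 20 members not called that took in a 2-fold change. A dimmer row of *LAC23* gave 7.86, 7.45 and 5.44 in mock and 3.72, 3.47 and 3.72 in DEX, and it fell (log2 -0.91, SE 0.21, adjusted p = 0.00363). The direction was the same in both rows, but the call was not. *LAC15*, *LAC18*, *LAC20* and *LAC23* lay under the 25th percentile of the rows, as did *LAC1*, *CSLD5*, *CSLF2*, *CSLF3* and *CSLF7*, 9 members in all, of which *LAC1* alone passed. *CSLF4* and *LAC24*, which also passed, lay little above it, at percentiles of 26.3 and 29.1, with DEX arrays of 12 h included in the mean.

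*Os4CL3*, a ligase of lignin synthesis in rice, had the largest difference of all 34 members. Its signal was 91.0, 108 and 86.0 in mock and 338, 211 and 169.7 in DEX at 3 h. At 12 h it was 115, 104 and 80.3 in mock and 3439, 3521 and 2917 in DEX. The DEX arrays of 12 h were far above all others, and those of 3 h lay between them and the mock arrays without overlap. The log2 difference at 12 h was 5.05 (SE 0.23, adjusted p = 2.48e-08). *Os4CL4* ran the other way, with 128, 115 and 123 in mock and 76.7, 80.8 and 96.4 in DEX at 12 h (log2 -0.53, SE 0.10, adjusted p = 0.00143), again without overlap. The members of the family measured here therefore differed in direction, and the other 3 annotated *4CL* genes were not analysed here.

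**Figure D3:**
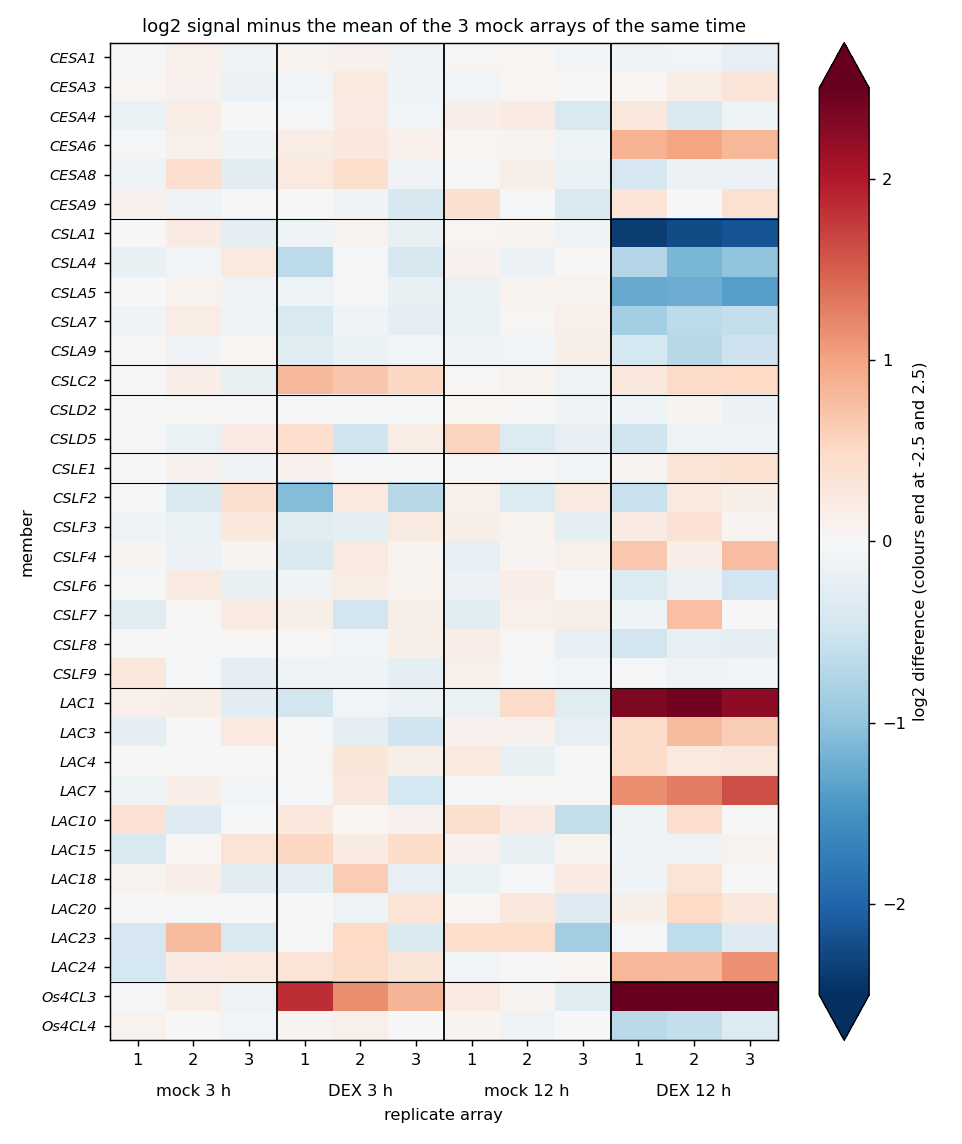
Each row is a member and each column an array, in 4 groups of 3; the color gives the log2 signal minus the mean of the 3 mock arrays of the same time, from blue (lower) to red (higher), and ends at -2.5 and 2.5. The *CSLA* block is blue and *CESA6*, *LAC1*, *LAC7*, *LAC24* and *Os4CL3* are red in all 3 DEX arrays of 12 h, while at 3 h *Os4CL3* and *CSLC2* are the reddest in all 3 DEX arrays.

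After 3 h of DEX no member passed the adjusted p in limma; of all rows 0.244% passed, 0.240% higher and 0.00364% lower. By a fold of at least 2 with an unadjusted p under 0.01, *Os4CL3* was higher and 0 members were lower, against 0.229% and 0.0255% of rows. At an unadjusted p under 0.05, 3 members were higher (*Os4CL3*, *CSLC2* and *LAC15*) and 0 were lower, against 3.24% and 2.87% of rows. *Os4CL3*, whose arrays are given above, had a log2 difference of 1.28 (SE 0.23, adjusted p = 0.0527). It passed in 7 of the other fits, for instance with dim rows left out (adjusted p = 0.0322), with a trend in the variance (0.0144) or when DEX replicate 3 of 3 h was dropped (log2 1.50, 0.0198). It did not pass in a fit of the 6 arrays of 3 h alone (0.377). *CSLC2* gave 346, 383 and 302 in mock and 602, 555 and 489 in DEX at 3 h (log2 0.68, SE 0.12, adjusted p = 0.0679), with no overlap, and it passed in 4 of the other fits (0.0136 to 0.0479). The *CSLA* genes, all lower at 12 h, had log2 differences of -0.36 to -0.07 at 3 h, and the *CESA* genes of -0.15 to 0.20. The groups overlapped in all 5 *CSLA* genes. Of the 34 members, 5 lay wholly higher at 3 h (*CESA6*, *CSLC2*, *LAC4*, *LAC24* and *Os4CL3*) and 1 wholly lower (*CSLD2*), against 5.21% and 5.49% of rows.

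The change of the DEX effect between the times was tested as the interaction term of the same fit, in which 29.9% of all rows passed, 10.4% higher and 19.5% lower. It passed for 8 members. A fold of at least 2 with an unadjusted p under 0.01 kept 3 of them as higher and 2 as lower, against 4.86% and 8.46% of rows. The effect was higher at 12 h than at 3 h for *Os4CL3* (by 3.77 on the log2 scale, SE 0.32, adjusted p = 8.72e-06), *LAC1* (2.56, SE 0.28), *LAC7* (1.43, SE 0.24), *LAC3* (0.87, SE 0.23) and *CESA6* (0.71, SE 0.14). It was lower for *CSLA1* (-2.18, SE 0.18, adjusted p = 6.88e-06), *CSLA5* (-1.17, SE 0.14) and *Os4CL4* (-0.60, SE 0.15). For *CSLA4*, *CSLA7* and *CSLA9*, which also fell at 12 h, the change was -0.60, -0.46 and -0.38 and did not pass (adjusted p = 0.0889, 0.0744 and 0.0912). The same held for *LAC24* (0.55, adjusted p = 0.113) and *CSLF4* (0.56, adjusted p = 0.136), which rose at 12 h. *CSLC2* had a change of -0.26 (SE 0.18, interval -0.65 to 0.12, adjusted p = 0.294). Its difference was 0.68 at 3 h and 0.41 at 12 h, and a difference between the times was not detectable.

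**Figure D4:**
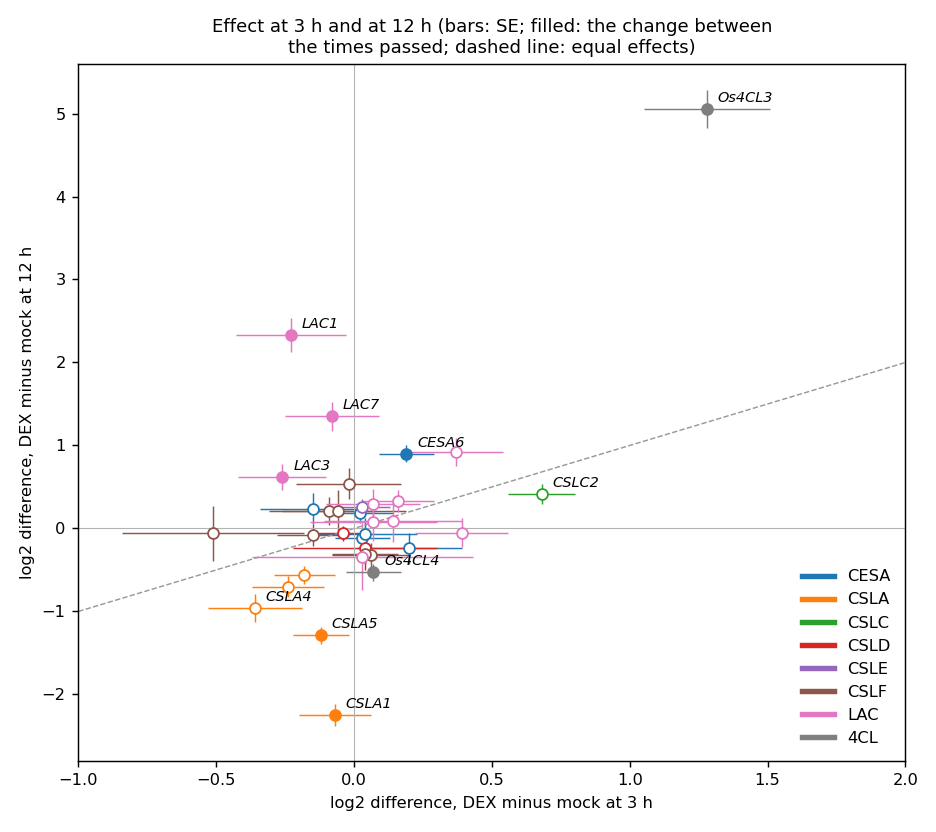
The log2 difference between DEX and mock at 12 h (vertical axis) is plotted against that at 3 h (horizontal axis) for the 34 members, colored by family, with bars for the SE; filled points are the 8 members whose change between the times passed, and the dashed line marks equal effects. *CSLC2* lies close to the line, *Os4CL3* is at 1.28 and 5.05, and *LAC1*, *LAC7*, *CSLA1* and *CSLA5* lie near 0 at 3 h. The axes differ in scale.

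The mock arrays gave the background of time in culture. No member and 0 of the 54922 rows passed in limma between mock at 12 h and mock at 3 h. At an unadjusted p under 0.05, 5 members were higher at 12 h (*CESA3*, *CESA8*, *CSLA1*, *CSLC2* and *LAC15*) and 0 were lower, against 4.48% and 5.74% of rows. The largest difference was -0.69 (SE 0.33, adjusted p = 0.511), in *CSLF2*, a dim row. The largest positive differences were 0.59 (SE 0.19, adjusted p = 0.343) for *CESA8* and 0.51 (SE 0.13, adjusted p = 0.254) for *CSLA1*. *CSLA1* gave 1525, 1748 and 1301 in mock at 3 h and 1407, 1604 and 1329 in DEX at 3 h. The DEX arrays of 12 h were thus below all 9 other arrays of this gene.

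The other genes of wall synthesis were taken from lists of names, and the background is that given above for 12 h. In monolignol synthesis, 1 of 4 measured genes passed. *CAD*, cinnamyl alcohol dehydrogenase, which makes the alcohols from aldehydes, rose from 91.8, 71.8 and 75.0 to 207, 239 and 248 (log2 1.54, SE 0.15, adjusted p = 6.69e-06). *PAL* (0.03), *CAD3* (-0.02) and *CCR1* (-0.47, SE 0.35), of the same pathway, did not pass. *Os4CL3* and *CAD* were thus higher in all 3 DEX arrays. The 1 gene measured under the name *PAL*, that of the entry enzyme of the phenylpropanoid pathway, was not separated from mock. Genes for this enzyme under other names were not looked for, so the entry step as a whole was not assessed.

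Of 12 other genes, taken by their names for endoglucanases (*GLU*) or COBRA-like proteins (*BC1L*), 4 rose and 3 fell. Whether each acts in cellulose synthesis was not tested. *GLU8* rose from 65.5, 62.0 and 60.3 to 572, 675 and 588 (log2 3.29, SE 0.10, adjusted p = 2.45e-09), and *GLU3* from 61.6, 48.6 and 50.7 to 286, 410.1 and 424 (log2 2.79, SE 0.22, adjusted p = 1.51e-06). *GLU2* fell by 0.98 on the log2 scale (SE 0.13) and *GLU12* by 0.75 (SE 0.19). *GLU12* had 2 rows, and only the one with the higher mean is given. The groups did not overlap in these 4 genes, so members of the endoglucanase family ran both ways. UDP-glucose is the sugar donor of cellulose. Among 6 sucrose synthase genes (*SUS*), whose enzymes make it, and 2 UDP-glucose dehydrogenase genes (*UGD*), whose enzymes consume it, the sucrose synthase gene *SUS1* fell from 1183, 1191 and 1179 to 339, 284 and 299 (log2 -1.95, SE 0.09, adjusted p = 3.22e-08). *SUS3* fell by 0.88 (SE 0.20) and *SUS4* rose by 1.13 (SE 0.16). The other 3 *SUS* genes and both *UGD* genes did not pass. *XAT2*, a xylan arabinosyltransferase gene, was the 1 gene measured for xylan and rose by 0.42 (SE 0.12, adjusted p = 0.0163). At 3 h no gene of these 4 lists passed (adjusted p of at least 0.44).

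**Figure D5:**
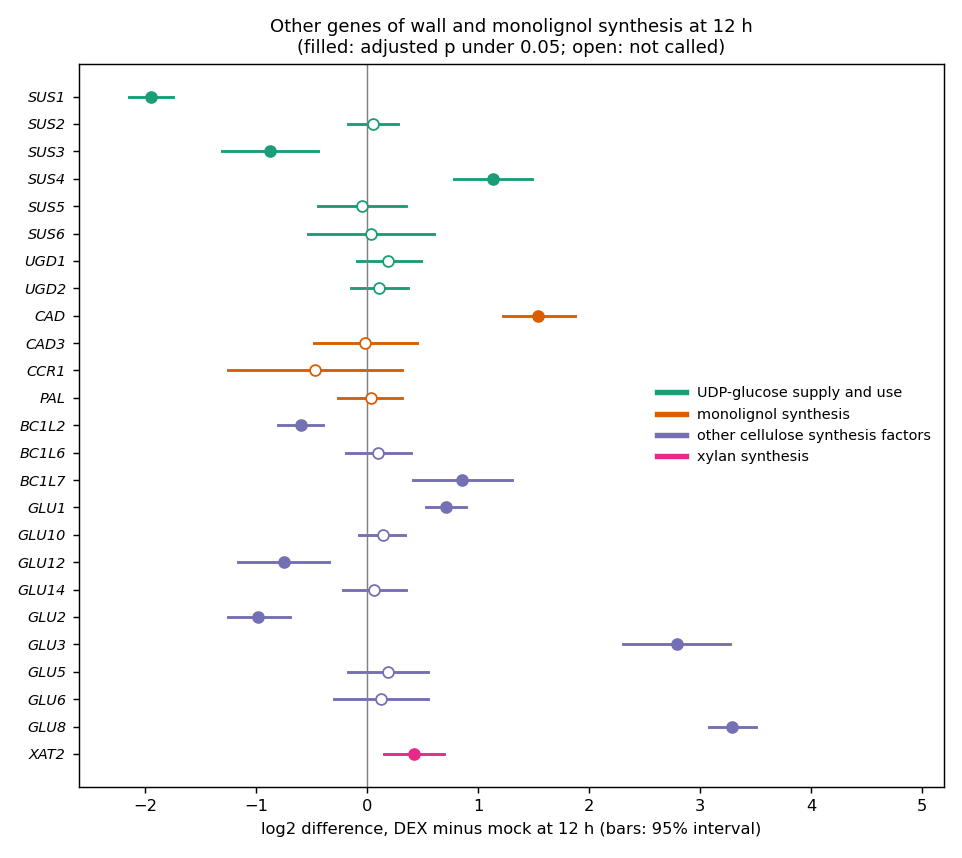
The log2 difference between DEX and mock at 12 h is plotted for 25 other genes of wall and monolignol synthesis, colored by list, with bars for the 95% interval; filled points passed an adjusted p under 0.05. *GLU8* (3.29) and *GLU3* (2.79) are highest and *SUS1* (-1.95) lowest.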

How the data were processed

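RNA from rice shoot apices was hybridized to Affymetrix Rice (US) Gene 1.0 ST arrays of 1 color, 3 arrays in each of 4 groups. Before deposit, the authors used Affymetrix Expression Console 1.3 with its standard settings for this array type to normalize them. The range of the deposited values is that of log2 signals, and they were not scaled further; signals in the text are 2 to that power. Each row's gene came from the platform annotation, and 15829 of 54922 rows were paired with 1 gene. Names were completed from the RefSeq gene table of ASM3414082v1. For a gene with several rows, the row with the highest mean over the 12 arrays was used.

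The 4 group means were fitted to all 12 arrays by limma 3.58.1 under R 4.3.3, with eBayes moderation and Benjamini-Hochberg adjustment of p over every row. SE and 95% intervals are on the log2 scale. The number of arrays limits the precision.

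Every member is named; array values are given for the largest differences at 12 h in each family and for members called in any comparison. From each list of other wall genes, up to 2 rises and 2 falls were taken, and the uncalled genes given beside them were picked after their values were seen. Genes that matched a list name by chance (38 zinc finger genes named C3H, and 3 others) were left out. The members and lists were chosen with earlier results of these data known. The alternatives were median centring, quantile normalization, leaving out rows under the 25th percentile, a variance trend, the replicate number as a block, 1 row per gene, identical rows counted once, the mean of a gene's rows, only the 6 arrays of a time, a fold of 2 with an unadjusted p under 0.01, and leaving out each array. The fit was tested on simulated data with 200 of the 54922 rows changed. It found 19.4% of 1.5-fold changes at either time, and 65.7% (3 h) and 76.1% (12 h) of 2-fold changes. Of 4-fold changes it found 98.5% (3 h) and 100% (12 h). Small changes could thus be missed. In the data 43.0% of rows passed at 12 h, so recovery there may differ. Python 3.11.15 and matplotlib 3.10.9 drew the figures.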

Additional observations from a re-analysis of the deposited data

Results flagged for a closer look

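For 8 members the DEX effect differed between 12 h and 3 h by the interaction term of the limma fit (n = 3 arrays a group, adjusted over all rows). The effect at 12 h minus that at 3 h, on the log2 scale, was 3.77 for *Os4CL3* (adjusted p = 8.72e-06), 2.56 for *LAC1* (4.97e-05), 1.43 for *LAC7* (0.000933), 0.87 for *LAC3* (0.0126) and 0.71 for *CESA6* (0.00244). It was -2.18 for *CSLA1* (6.88e-06), -1.17 for *CSLA5* (0.000116) and -0.60 for *Os4CL4* (0.00968). All 8 calls were kept in every alternative fit at the adjusted p, the *LAC1* call in the 19 fits in which its row was tested; a fold of 2 with an unadjusted p under 0.01 kept 5 of them and dropped *CESA6*, *LAC3* and *Os4CL4*. The same interaction term passed for 29.9% of all rows, 10.4% higher and 19.5% lower. With 1 row for each gene, it passed higher for 16.5% of genes and lower for 25.4%, against 14.7% and 8.82% of the members. At 12 h itself 43.0% of rows passed, and at 3 h 0.244%.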

How the results depend on the processing

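Of the 14 members called at 12 h, 12 kept their call and direction in every alternative fit at the adjusted p; *CSLC2* kept it in 18 of 21 and *CSLF4* in 16 of 21. Calls that were gained in some fits were those of *CSLE1*, *LAC4*, *CESA3*, *CSLF8* and *CSLF6*. By a fold of 2 and an unadjusted p under 0.01, 3 members were higher and 2 lower at 12 h (2840 and 5362 rows), 1 member was higher at 3 h (14 rows lower), 3 members had a higher change of effect (2671 rows higher and 4647 lower), and 36 rows were higher and 38 lower between the mock groups. With 1 row per gene, 3712 rows were higher and 5217 lower at 12 h, and 2874 and 4334 in the change of effect, with 5 members lower; fewer rows were tested. At 3 h it called 2 members higher and 9 rows lower.

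At 3 h the 1 member higher was *Os4CL3* after centring, with the replicate block and with identical rows counted once (4 rows lower). After quantile normalization the 1 member higher was *CSLC2* (adjusted p = 0.0479 in limma), and *Os4CL3* did not pass (0.0505). Both members were higher without dim rows or with a variance trend (5 rows lower in each). The 6 arrays of 3 h alone gave 6 rows higher and 0 lower. The variance trend gave 5 members with a lower change of effect, and 2 rows higher and 1 lower between the mock groups. The cause of these shifts was not tested.

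Scaling moved the balance of calls. At 12 h 65.2% of called rows were lower in the deposited values (8203 higher and 15390 lower), 56.7% after centring (10419 and 13671) and 53.7% after quantile normalization (11080 and 12858); of the members, 10 and 11 were then higher and 6 lower. Members near 0, none of them called, changed sign: after centring *CESA4* (0.01), *CSLD2* (0.02), *CSLF2* (0.02) and *LAC15* (0.03), and after quantile normalization *CESA1* (0.00), *CESA4* (0.12), *CSLD2* (0.06), *CSLF2* (0.03), *CSLF9* (0.03) and *LAC15* (0.03).

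Leaving out each array in turn gave 6976 to 8211 rows higher and 13667 to 15387 lower at 12 h, with 6 to 8 members higher and 6 to 7 lower. At 3 h it gave 61 to 120 rows higher and 1 to 11 lower, with 0 to 1 members higher. The change of effect had 4904 to 5825 rows higher and 9266 to 11452 lower, with 5 to 6 members higher and 3 to 4 lower, and the mock groups 0 to 3 rows higher and 0 to 6 lower. Sign changes at 12 h came for *CESA4* (-0.26 to 0.08), *CSLD5* (-0.41 to 0.04), *CSLF2* (-0.23 to 0.19), *LAC18* (-0.05 to 0.18), *LAC10* (-0.20 to 0.29) and *CSLF7* (-0.06 to 0.37), none of them called.

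The deviations of same-numbered arrays from their group means correlated at -0.05 to 0.17. No pairing was assumed, but such correlations over all rows cannot exclude one. With the replicate number as a block, 7892 rows were higher and 15232 lower at 12 h, with 8 members higher and 7 lower (*CSLF6* added, adjusted p = 0.028). The member called at 3 h with the block was *Os4CL3* (adjusted p = 0.0292).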
